A study of Mus musculus with 8 samples.

Results

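CC chemokine ligands are small secreted proteins that draw leukocytes into a tissue, and 10 of their genes (*Ccl2*, *Ccl3*, *Ccl4*, *Ccl5*, *Ccl6*, *Ccl7*, *Ccl8*, *Ccl9*, *Ccl11*, and *Ccl24*) were examined here in sorted macrophages of mouse epididymal white adipose tissue (eWAT). The members were the rows of the count table whose Ensembl gene identifier carries one of these symbols, 10 of 54146 genes. All 10 passed the filter on low counts, which kept 17095 genes. Obese male C57BL/6 mice had eaten a high-fat diet without restriction for 24 weeks and were then given 30% less food for 2 weeks, the short-term caloric restriction (stCR) of the study. The paper describes its obesity diet as high in both fat and cholesterol, and its stCR as less of that same diet. From the eWAT of each of 4 mice, FCGR4+ and FCGR4- macrophages were sorted by flow cytometry and bulk RNA-Seq was performed, giving 8 libraries. FCGR4 is an activating receptor for IgG. All groups shared the diet and the stCR, so that no obese mice without stCR, no lean mice, and no mice that regained weight entered any comparison here. The sort gated CD45+, CD3-, B220-, Ly6G-, SiglecF-, CD11b+ cells, so "macrophage" rests on that gate.

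CC chemokines bind receptors of the CCR family on the cells they attract. *Ccl2*, *Ccl7*, and *Ccl12* encode monocyte chemoattractants that act through CCR2, and *Ccl8* encodes a relative that in the mouse acts largely through CCR8. *Ccl11* and *Ccl24* encode eotaxins, which attract eosinophils through CCR3. *Ccl3*, *Ccl4*, and *Ccl5* encode inflammatory chemokines that attract monocytes and T cells, and *Ccl6* and *Ccl9* encode rodent chemokines that bind CCR1. In obese adipose tissue, CCL2 and its receptor are best known for bringing in blood monocytes that become macrophages.

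The genes lie in 2 groups on chromosome 11 and 1 site on chromosome 5 (mm10). *Ccl2* (chr11:82035571-82037453), *Ccl7* (chr11:82045712-82047525), *Ccl11* (chr11:82057823-82062955), and *Ccl8* (chr11:82115185-82116799) follow one another on the plus strand. The other group on chromosome 11 holds *Ccl5* (chr11:83525778-83530518), *Ccl9* (chr11:83572919-83578636), *Ccl6* (chr11:83587882-83593087), and *Ccl3* (chr11:83647844-83649355) on the minus strand and *Ccl4* (chr11:83662584-83664683) on the plus strand. *Ccl24* lies on the minus strand at chr5:135569937-135573049. The coordinates span each gene with its exons, introns, and UTRs, and no exon of a member overlapped an exon of another gene. Family members resemble each other, so the transcripts were compared in stretches of 50 bases. Of these stretches, 0% were shared with another gene for 9 members, and 1.97% were shared for *Ccl9*, none of them with another chemokine gene.

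RefSeq promoter sequence (GRCm38.p6) was held for 4 of the 10 genes (*Ccl3*, *Ccl6*, *Ccl8*, and *Ccl9*), and 3 of them are shown here for the results they go with. *Ccl8* was the only member called higher in FCGR4+ macrophages, and *Ccl6* and *Ccl9* were the 2 members whose levels were most alike over the 8 libraries. Each sequence is the 250 bases before the gene's start, 5′ to 3′ on the gene's strand, with matches to a searched motif in capitals. The windows are chr11:82114935-82115184 (plus strand) for *Ccl8*, chr11:83593088-83593337 (minus strand) for *Ccl6*, and chr11:83578637-83578886 (minus strand) for *Ccl9*.
Ccl8: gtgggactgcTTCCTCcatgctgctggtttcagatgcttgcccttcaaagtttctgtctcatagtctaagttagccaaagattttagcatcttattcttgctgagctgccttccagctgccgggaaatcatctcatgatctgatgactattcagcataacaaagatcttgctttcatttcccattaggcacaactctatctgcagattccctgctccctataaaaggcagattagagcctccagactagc
Ccl6: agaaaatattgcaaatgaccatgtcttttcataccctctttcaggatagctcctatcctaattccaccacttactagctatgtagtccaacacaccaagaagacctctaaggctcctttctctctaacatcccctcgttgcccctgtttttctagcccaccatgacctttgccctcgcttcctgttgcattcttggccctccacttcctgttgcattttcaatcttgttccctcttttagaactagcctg
Ccl9: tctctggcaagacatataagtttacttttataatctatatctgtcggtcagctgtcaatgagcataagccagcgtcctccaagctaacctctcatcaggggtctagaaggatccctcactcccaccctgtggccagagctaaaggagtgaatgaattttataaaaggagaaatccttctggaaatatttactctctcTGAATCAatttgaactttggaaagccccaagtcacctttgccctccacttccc

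The motifs searched on both strands were GAS (TTCNNNGAA), AP-1 (TGANTCA), CEBP (TTGCNNCAA), and PU.1 (GAGGAA). The *Ccl8* window held 1 match, to PU.1, 240 to 235 bases before the start, and 23.3% of all 32851 windows of that length held one. The window of *Ccl3*, which was not called and is not printed, also held a PU.1 match, 33 to 28 bases before the start. The *Ccl9* window held 1 match, to AP-1, 53 to 47 bases before the start, and 6.7% of all windows held one. The *Ccl6* window held no match to these letters. A match in letters is a description and was not tested as a site.

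The libraries held from 35992794 to 66856746 counts. Levels are given as normalized CPM, which are counts scaled to a common library size, and 3 counts equaled 0.0440 to 0.0883 on that scale, so every member was well above the counting floor in every library. *Fcgr4*, the gene of the sorted protein, had 215, 139, 208, and 236 normalized CPM in the FCGR4+ libraries of mice 1 to 4 and 48.5, 52.2, 81.1, and 82.9 in the FCGR4- libraries (log2 fold change 1.61 ± 0.173 SE, edgeR adjusted P = 0.0162), and the groups did not overlap. Macrophage markers were abundant in both populations, with a sum over 14 genes of 31405 to 55557 normalized CPM in FCGR4+ and 24968 to 49046 in FCGR4-, higher in FCGR4+ in 4 of 4 mice. Marker genes of other cells were measured too, although the gate would remove T cells (CD3-), B cells (B220-), neutrophils (Ly6G-), eosinophils (SiglecF-), and, by CD45+, fibroblasts, mesothelial cells, endothelial cells, and adipocytes. Of the tested genes, 10 of 10 mast cell and basophil markers, 7 of 13 T and NK cell markers, 6 of 9 neutrophil markers, 5 of 10 dendritic cell markers (*Ccl22* and *Ccr7* among them), 3 of 6 B cell markers, and 9 of 13 fibroblast and preadipocyte markers passed the test as lower in FCGR4+ and 0 as higher. Of 16 cell isolation stress genes, 0 passed by edgeR. Of the other marker lists, mesothelial markers had 1 of 6 genes called lower and a sum lower in FCGR4+ in 4 of 4 mice (1.06 to 10.1 against 5.30 to 46.9 normalized CPM), and 0 of 7 endothelial, 0 of 5 eosinophil, and 0 of 9 adipocyte markers passed by edgeR. Mice 1 and 2 carry one animal ID prefix in the labels and mice 3 and 4 another.

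The 10 genes together made up 0.446% to 1.09% of the normalized counts of a library. Their sum was 4463, 4996, 10884, and 10084 normalized CPM in the FCGR4+ libraries of mice 1 to 4, and 4514, 4510.5, 7792, and 7720.2 in the FCGR4- libraries. The sum was thus higher in FCGR4+ in 3 of 4 mice, and both libraries of mice 3 and 4 were above all libraries of mice 1 and 2. *Ccl6* and *Ccl9* carried most of it, between 93.1% and 95.7% in mice 1 and 2 and between 69.0% and 73.3% in mice 3 and 4. *Ccl2*, *Ccl7*, and *Ccl8* added between 2.48% and 3.499% in mice 1 and 2 and between 20.9% and 29.1% in mice 3 and 4.

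**Figure D1:**
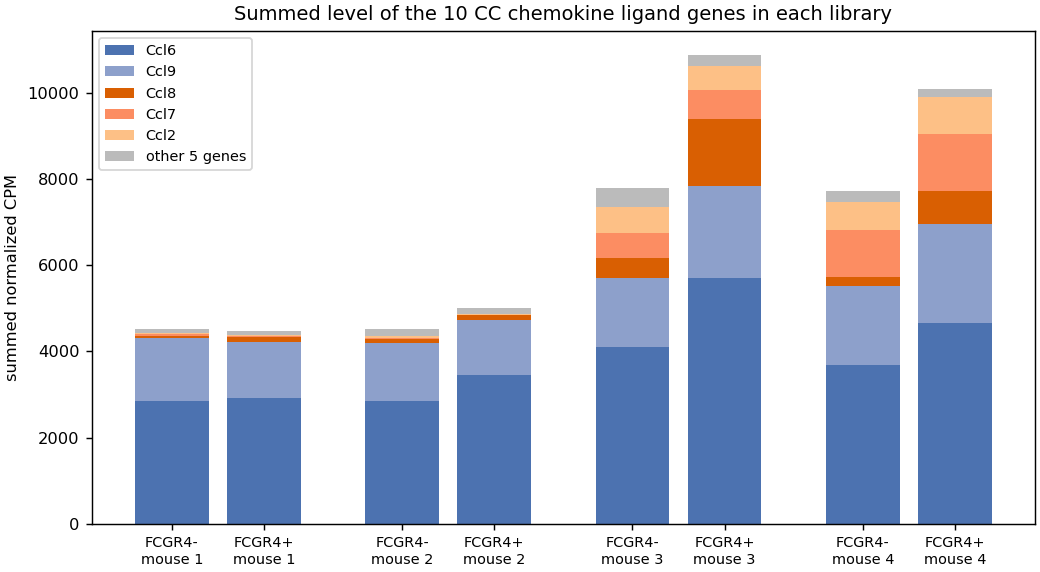
Summed normalized CPM of the 10 genes in each of the 8 libraries (bars, from 0), split into *Ccl6*, *Ccl9*, *Ccl8*, *Ccl7*, *Ccl2*, and the other 5 genes. The bars of mice 3 and 4 reach 7720.2 to 10884 and those of mice 1 and 2 reach 4463 to 4996, and the *Ccl2*, *Ccl7*, and *Ccl8* blocks are visible mainly in mice 3 and 4.

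Levels of different genes were compared per kilobase of exon. *Ccl6* had the highest mean in both populations, 2331 ± 692 normalized CPM per kilobase in FCGR4+ and 1875 ± 349 in FCGR4- (SD, n = 4), and ranked 40 among the 17095 tested genes over all libraries. In FCGR4+ macrophages the order of mean levels was *Ccl6*, *Ccl8*, *Ccl7*, *Ccl9*, *Ccl2*, *Ccl4*, *Ccl3*, *Ccl5*, *Ccl24*, and *Ccl11*. These means pool mice with unlike levels. *Ccl7* was above *Ccl9* in mice 3 and 4 (842 and 1672 against 704 and 755) and far below it in mice 1 and 2 (14.9 and 19.7 against 426 and 416), and in mouse 1 it was also below *Ccl4*, *Ccl3*, *Ccl2*, and *Ccl5*. Among neighbors in that order, the values of *Ccl3* (36.6 to 101) and *Ccl5* (15.1 to 28.2) did not overlap, nor did those of *Ccl24* (3.33 to 24.2) and *Ccl11* (1.46 to 2.58). All other neighbors overlapped. In FCGR4- macrophages the order was *Ccl6*, *Ccl7*, *Ccl9*, *Ccl8*, *Ccl2*, *Ccl4*, *Ccl3*, *Ccl24*, *Ccl5*, and *Ccl11*, and of the neighbors only *Ccl6* and *Ccl7* and, at the lower end, *Ccl5* and *Ccl11* did not overlap. *Ccl11* had the lowest mean per length in both populations, at 1.96 ± 0.480 normalized CPM per kilobase in FCGR4+ and 6.17 ± 3.00 in FCGR4- (SD, n = 4). In the FCGR4- library of mouse 1, however, *Ccl24* (6.79) was below *Ccl11* (7.64).

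The comparison of FCGR4+ with FCGR4- macrophages was made within mouse. Of the 10 genes, 1 was called higher in FCGR4+ (*Ccl8*) and 1 lower (*Ccl11*) at an adjusted P under 0.1 in edgeR's quasi-likelihood test, and 8 were not called. At a threshold of 0.05, 0 of the 10 were called. Of all 17095 tested genes, 1.27% were called, 0.0819% as higher and 1.19% as lower. The median log2 fold change of the 10 genes was -0.21, and that of all tested genes was -0.0025. Across mice, 2 genes were higher in FCGR4+ in 4 of 4 (*Ccl6* and *Ccl8*) and 2 were lower in 4 of 4 (*Ccl11* and *Ccl24*), where 8.38% and 10.5% of all tested genes were so. In these bulk samples, a difference in the number of cells that express a gene and one in RNA per cell cannot be told apart.

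**Figure D2:**
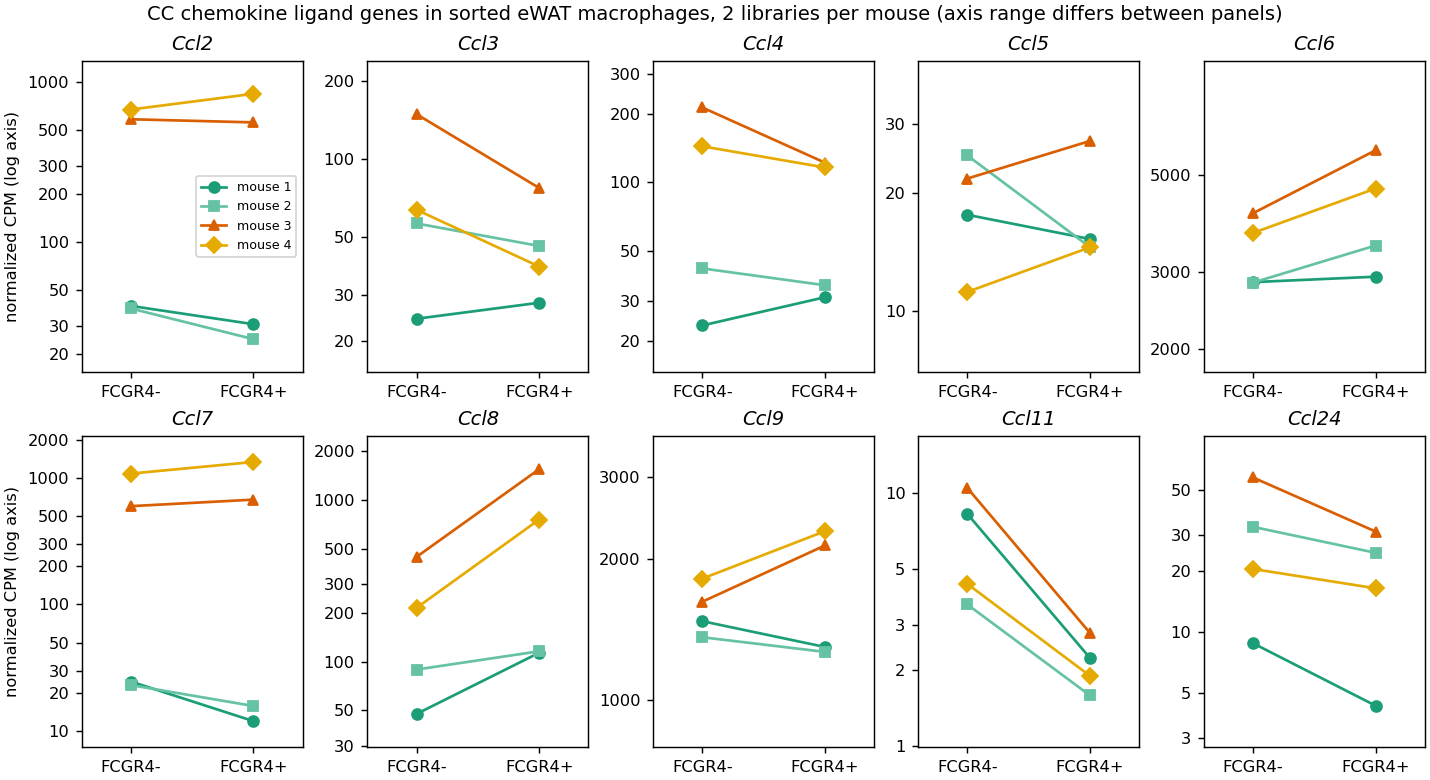
Normalized CPM (log axis, its range set for each gene) of the 10 genes in FCGR4- and FCGR4+ macrophages, with a line joining the 2 libraries of each mouse. The *Ccl8* lines rise and the *Ccl11* lines fall in all 4 mice, and the *Ccl2* and *Ccl7* lines of mice 3 and 4 lie far above those of mice 1 and 2.

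*Ccl8* was the member with the clearest rise. The FCGR4+ libraries of mice 1 to 4 had 113, 116, 1549, and 756 normalized CPM of *Ccl8* (ENSMUSG00000009185), and the FCGR4- libraries had 47.5, 89.3, 444, and 215. The FCGR4+ library was the higher one in every mouse, but the groups overlapped, because both FCGR4+ values of mice 1 and 2 were below both FCGR4- values of mice 3 and 4. The fold change within mouse was 2.49 (log2 fold change 1.32 ± 0.257 SE, 95% interval 0.72 to 1.92, edgeR adjusted P = 0.0994). The log2 ratio was 1.26, 0.38, 1.80, and 1.81 in mice 1 to 4, so mouse 2 showed the smallest difference. The call was lost without mouse 1, mouse 3, or mouse 4 (log2 fold change 1.34, 1.14, and 1.15, edgeR adjusted P = 0.243, 0.221, and 0.299) and kept without mouse 2 (1.62, edgeR adjusted P = 0.0470). It was kept in mice 3 and 4 alone (1.78, edgeR adjusted P = 0.0681) and not reached in mice 1 and 2 alone (0.82, edgeR adjusted P = 0.459). It was also lost without the pairing by mouse (1.67, edgeR adjusted P = 0.919). Of 13 alternatives, 5 lost the call and 8 kept it. DESeq2, which called 1.12% of tested genes higher, kept it (adjusted P = 9.4e-06).

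*Ccl2* and *Ccl7*, the CCR2 ligands among the members, were not called between the populations. *Ccl2* had 30.8, 24.8, 559, and 843 normalized CPM in the FCGR4+ libraries of mice 1 to 4 and 40.0, 38.5, 584, and 672 in the FCGR4- libraries. *Ccl7* had 11.95, 15.7, 675, and 1339 in FCGR4+ and 24.6, 23.0, 599, and 1084 in FCGR4-. For both genes the FCGR4+ library was the lower one in mice 1 and 2 and the higher one in mouse 4, and the libraries of mice 3 and 4 stood far above those of mice 1 and 2 in both populations. The log2 fold change was -0.19 ± 0.181 SE for *Ccl2* (95% interval -0.61 to 0.24, edgeR adjusted P = 0.730). For *Ccl7* it was -0.27 ± 0.240 SE (95% interval -0.83 to 0.30, edgeR adjusted P = 0.709). *Ccl2* was higher in FCGR4+ in 1 mouse and *Ccl7* in 2 mice, mice 3 and 4. The sign of both turned in the fit without the pairing by mouse and in mice 3 and 4 alone.

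Of the eotaxin genes, *Ccl11* was called lower in FCGR4+ and *Ccl24* was not called. The FCGR4+ libraries of mice 1 to 4 had 2.23, 1.58, 2.79, and 1.89 normalized CPM of *Ccl11* (ENSMUSG00000020676), and the FCGR4- libraries had 8.26, 3.62, 10.5, and 4.37. Every FCGR4+ value was below every FCGR4- value, as was so for 3.02% of all tested genes. *Ccl11* was 2.94-fold lower in FCGR4+ (log2 fold change -1.56 ± 0.256 SE, 95% interval -2.16 to -0.95, edgeR adjusted P = 0.0633), lower in 4 of 4 mice. Without any 1 of the 4 mice the call was lost, with a log2 fold change between -1.68 and -1.44 and an edgeR adjusted P between 0.138 and 0.209, and it was not reached in mice 1 and 2 or mice 3 and 4 alone, or without the pairing by mouse (0.196). Of 13 alternatives, 7 lost the call and 6 kept it. DESeq2, which called 4.87% of tested genes lower, kept it (adjusted P = 2.4e-05).

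Fibroblasts express *Ccl11* in many tissues. Of 13 fibroblast and preadipocyte markers, 9 passed the test as lower in FCGR4+ and 0 as higher. Their summed level was 668 to 755 normalized CPM in FCGR4+ and 943 to 2426 in FCGR4-, lower in FCGR4+ in 4 of 4 mice, and none of the 13 was at 0. The mesothelial sum given above was lower in FCGR4+ in the same 4 mice. The gate would remove mesothelial cells too, and their part was not tested. The 3 highest of the fibroblast markers by mean level were *Gsn*, an actin-binding protein that macrophages also express (456 ± 71.98 in FCGR4+ and 809 ± 277 in FCGR4-, SD, n = 4), the collagen gene *Col3a1* (69.8 ± 25.3 and 342 ± 260.2), and the proteoglycan gene *Dcn* (91.3 ± 35.3 and 240.1 ± 118). Of these, *Col3a1* was called (edgeR adjusted P = 0.0988), and *Gsn* (0.175) and *Dcn* (0.100018) were not. The genes whose level over the 8 libraries was most like that of *Ccl11* were *Postn*, *Bgn*, and *Sgce*, with a root mean square difference of 0.17, 0.21, and 0.24 between mean-centered log2 CPM values. *Postn* and *Bgn* encode matrix proteins. *Bgn* was itself called lower (log2 fold change -1.75, edgeR adjusted P = 0.0649), and *Postn* (0.118) and *Sgce* (0.167) were not called. The sort kept CD45+ CD11b+ cells, a gate that would remove fibroblasts and preadipocytes, and the part of fibroblast RNA in the *Ccl11* difference was not tested.

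*Ccl24* had 4.32, 24.6, 31.3, and 16.4 normalized CPM in the FCGR4+ libraries of mice 1 to 4 and 8.79, 33.0, 58.0, and 20.5 in the FCGR4- libraries. It was the lower one in FCGR4+ in every mouse, but mice differed more than populations and the groups overlapped. The log2 fold change was -0.66 ± 0.173 SE (95% interval -1.07 to -0.25, edgeR adjusted P = 0.220). *Ccl24* was called lower by DESeq2 (adjusted P = 0.0304), which called 4.87% of tested genes lower, and by edgeR without the filter on low counts (adjusted P = 0.0793), which called 2.35% lower.

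*Ccl3*, *Ccl4*, and *Ccl5* were not called. *Ccl3* had 28.0, 46.3, 77.4, and 38.6 normalized CPM in FCGR4+ and 24.3, 56.6, 149, and 63.8 in FCGR4-, in the order of mice 1 to 4. It was higher in FCGR4+ in mouse 1 only, and the groups overlapped (log2 fold change -0.44 ± 0.205 SE, 95% interval -0.92 to 0.04, edgeR adjusted P = 0.535). *Ccl4* had 31.2, 35.2, 122, and 116 in FCGR4+ and 23.4, 41.8, 213, and 144 in FCGR4-. *Ccl4* too was higher in FCGR4+ in mouse 1 only, and both libraries of mice 3 and 4 were above all of mice 1 and 2 (log2 fold change -0.24 ± 0.203 SE, 95% interval -0.72 to 0.24, edgeR adjusted P = 0.695). *Ccl5*, which T and NK cells express strongly, had 15.2, 14.5, 27.1, and 14.5 in FCGR4+ and 17.6, 24.9, 21.7, and 11.2 in FCGR4-. It was lower in FCGR4+ in mice 1 and 2 and higher in mice 3 and 4 (log2 fold change -0.07 ± 0.225 SE, 95% interval -0.60 to 0.46, edgeR adjusted P = 0.926). The T and NK cell markers summed to 5.38 to 12.999 normalized CPM in FCGR4+ and 22.7 to 75.1 in FCGR4-, lower in FCGR4+ in 4 of 4 mice. The CD3- gate would remove T cells, though not NK cells, and the part of these cells in the *Ccl5* values was not tested.

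*Ccl6* and *Ccl9*, the CCR1 ligands with the highest counts of the family, differed little between the populations. *Ccl6* had 2928, 3451, 5698, and 4659.5 normalized CPM in FCGR4+ and 2845, 2838, 4089.7, and 3687 in FCGR4-. It was higher in FCGR4+ in 4 of 4 mice without being called, and the groups overlapped (log2 fold change 0.29 ± 0.128 SE, 95% interval -0.02 to 0.59, edgeR adjusted P = 0.527). *Ccl9* had 1297, 1266, 2143, and 2299.7 in FCGR4+ and 1474, 1361, 1622, and 1819 in FCGR4-. It was lower in FCGR4+ in mice 1 and 2 and higher in mice 3 and 4 (log2 fold change 0.11 ± 0.152 SE, 95% interval -0.24 to 0.47, edgeR adjusted P = 0.806). Neither interval reached a log2 fold change of 1 in either direction. The genes, neighbors on chromosome 11 whose promoters are printed above, had the smallest difference of any pair of members (root mean square 0.18 between mean-centered log2 CPM over 8 libraries). The level of *Ccl9* per kilobase was 0.216 to 0.305 times that of *Ccl6* in all 8 libraries. By contrast, *Ccl7* over *Ccl2* ranged from 0.552 to 2.29 and *Ccl8* over *Ccl2* from 0.712 to 10.4.

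**Figure D3:**
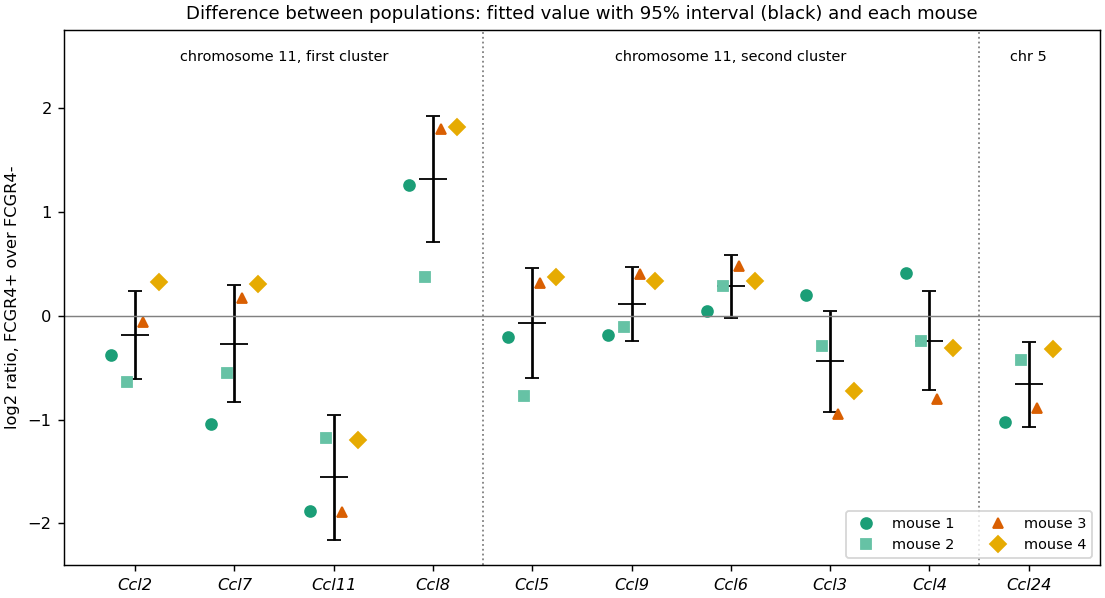
Log2 ratio of FCGR4+ over FCGR4- for the 10 genes in chromosomal order, as the edgeR fitted value with its 95% interval (black) and as the ratio in each mouse (symbols). The interval of *Ccl8* lies above 0, those of *Ccl11* and *Ccl24* lie below 0, and those of the other 7 genes include 0.

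In chromosomal order, the group of *Ccl2*, *Ccl7*, *Ccl11*, and *Ccl8* held both called members, which moved in opposite directions, and 0 of the 5 genes of the other group on chromosome 11 were called. *Ccl11* and *Ccl8* are next to each other among the members on that stretch. The most alike genes of *Ccl8* over the 8 libraries were *Gm36172*, *Ifi214*, and *Gm24270*, with root mean square differences of 0.68, 0.72, and 0.74, which are larger than the difference between *Ccl11* and *Postn*. *Ifi214* belongs to an interferon-inducible gene family. None of these 3 genes was called between the populations (edgeR adjusted P = 0.311, 0.558, and 0.411).

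The widest differences in the family were between animals. Over the 8 libraries of both populations, the highest was 112 (*Ccl7*), 33.96 (*Ccl2*), and 32.6 (*Ccl8*) times the lowest. Of 8088 genes with a mean of at least 10 normalized CPM, only 24, 67, and 71 had a wider range. Within FCGR4+ alone, the highest mouse was 112, 33.96, and 13.7 times the lowest for *Ccl7*, *Ccl2*, and *Ccl8*. Within FCGR4- alone, it was 47.0, 17.4, and 9.36 times the lowest. *Ccl6* (2.01 times) and *Ccl9* (1.82 times) had the narrowest ranges over the 8 libraries. Between mice within FCGR4+, *Ccl11* had the narrowest (1.77 times), then *Ccl9* (1.82), *Ccl5* (1.87), and *Ccl6* (1.95). Between mice within FCGR4-, *Ccl9* (1.34 times) and *Ccl6* (1.44) had the narrowest. *Ccl24* came after *Ccl8* over the 8 libraries (13.4 times), with 7.26 times within FCGR4+ and 6.60 times within FCGR4-. Its values overlapped between the animal ID prefixes (4.32 to 33.0 normalized CPM in mice 1 and 2 and 16.4 to 58.0 in mice 3 and 4). For 6 of the 10 genes, *Ccl2*, *Ccl4*, *Ccl6*, *Ccl7*, *Ccl8*, and *Ccl9*, the 4 libraries of mice 3 and 4 were all above the 4 of mice 1 and 2, as was so for 8.49% of all tested genes, and 0 genes were all below, against 7.92%. The libraries of 1 mouse share the animal. *Ccl2* lay between 24.8 and 40.0 normalized CPM in mice 1 and 2 and between 559 and 843 in mice 3 and 4. *Ccl7* lay between 11.95 and 24.6 and between 599 and 1339.

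The prefix was fitted within each population, 2 libraries against 2, after this split had been seen. In FCGR4+ macrophages, *Ccl2* was 25.2-fold higher in mice 3 and 4 (log2 fold change 4.66 ± 0.323 SE, edgeR adjusted P = 0.0697) and *Ccl7* was 72.7-fold higher (6.18 ± 0.468 SE, edgeR adjusted P = 0.0756), where 0.0643% of all tested genes were called higher. In FCGR4- macrophages, *Ccl2* was 16.2-fold higher (4.02 ± 0.209 SE, edgeR adjusted P = 0.0597) and *Ccl7* was 35.8-fold higher (5.16 ± 0.395 SE, edgeR adjusted P = 0.0950), where 0.0702% were. The other 8 genes were not called in either population by this test. DESeq2 also called *Ccl4*, *Ccl6*, *Ccl8*, and *Ccl9* in FCGR4+ and *Ccl4* and *Ccl8* in FCGR4-, where it called 13.4% and 4.6% of all tested genes, and edgeR's newer method also called *Ccl4* and *Ccl8* in FCGR4+, where it called 0.369%. The median log2 fold change of the 10 genes was 0.76 in FCGR4+ and 1.17 in FCGR4-, and that of all tested genes was -0.07 and -0.02. *Ccl8* had a log2 fold change of 3.33 ± 0.400 SE in FCGR4+ (edgeR adjusted P = 0.148) and 2.29 ± 0.498 SE in FCGR4- (0.310). *Ccl4* had 1.84 ± 0.198 SE (edgeR adjusted P = 0.148) and 2.47 ± 0.381 SE (0.243). *Ccl11*, the member called lower in FCGR4+, had 0.30 ± 0.477 SE and 0.33 ± 0.600 SE (edgeR adjusted P = 0.768 and 0.856), and its values in mice 1 and 2 and in mice 3 and 4 overlapped. The calls were lost in FCGR4- without any 1 library and in FCGR4+ without mouse 1 or mouse 2, where 1 side had a single library that was assumed to vary like the rest. In FCGR4+ they were also lost with library size alone as the scaling (edgeR adjusted P = 0.104 for both genes), at 24.98- and 72.7-fold. The folds stayed large. With 1 library left out, *Ccl2* was 15.0- to 17.4-fold higher in FCGR4- and 20.1- to 30.3-fold higher in FCGR4+, and *Ccl7* was 25.4- to 46.3-fold and 48.7- to 96.7-fold higher.

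**Figure D4:**
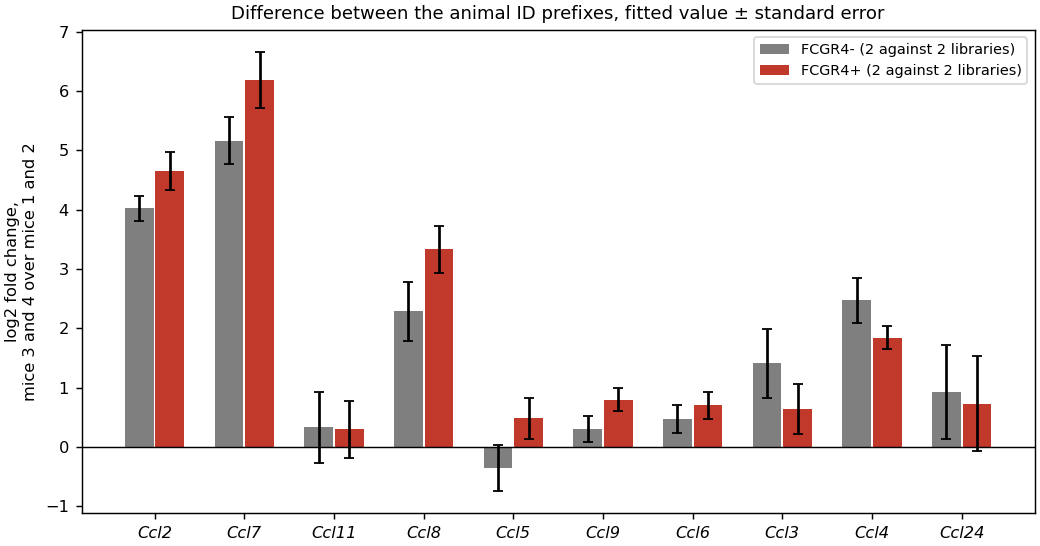
Log2 fold change of mice 3 and 4 over mice 1 and 2, fitted within FCGR4- (grey) and FCGR4+ (red) macrophages with 2 libraries a side (error bars, SE). *Ccl2* and *Ccl7* have the tallest bars, from 4.02 to 6.18, followed by *Ccl8* and *Ccl4*, and the bars of *Ccl11* lie near 0.

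What the prefix stands for (a cohort, a sort day, or a cage) is not given in the sources used here, and such a cause and the animals themselves cannot be told apart with 2 mice each. Values of other genes are given along the same split, named here after they had been seen. *Ccl12*, another CCR2 ligand, lay between 2.94 and 9.88 normalized CPM in mice 1 and 2 and between 198 and 674 in mice 3 and 4. *Ly6c2*, a marker of inflammatory monocytes, lay between 10.4 and 34.6 and between 314 and 458. The interferon-stimulated genes *Isg15* (2.42 to 6.34 and 98.1 to 192) and *Irf7* (22.1 to 79.1 and 412 to 739) did not overlap between the prefixes either, nor did the platelet gene *Ppbp* (0.910 to 2.68 and 49.8 to 95.2) or the hemoglobin gene *Hba-a1* (6.59 to 36.2 and 200.5 to 818). By edgeR within a population, *Ly6c2* was called in both (adjusted P = 0.0697 in FCGR4+ and 0.0748 in FCGR4-). *Ccl12*, *Isg15*, and *Ppbp* were called in FCGR4+ (edgeR adjusted P = 0.0913, 0.0913, and 0.0697) and not in FCGR4- (0.153, 0.135, and 0.153). *Irf7* and *Hba-a1* were called in neither (edgeR adjusted P from 0.148 to 0.259). The part of blood cells or monocytes in the *Ccl2* and *Ccl7* levels was not tested. Summed levels of 12 lists of cell type markers and stress genes were compared between the prefixes within each population, 2 libraries against 2. In FCGR4+, 6 lists overlapped, 2 were above in mice 3 and 4, and 4 were below, and in FCGR4- the counts were 6, 3, and 3. How often a list would separate so with 2 libraries a side was not tested. The stress gene sum was below in mice 3 and 4 in FCGR4+ (8929 and 6956 against 10946.5 and 10042.7). In FCGR4- the stress gene sum was above in mice 3 and 4 (12060 and 9885 against 8513 and 9487). In both populations the mesothelial sum was above in mice 3 and 4 (8.85 to 46.9 against 1.06 to 7.26 over both) and the eosinophil sum below (64.7 to 105.7 against 156 to 380.1), although the gate would remove both cell types (CD45+ and SiglecF-). In FCGR4- alone, the mast cell and basophil sum was 2171 and 1203 in mice 1 and 2 and 394.7 and 511.3 in mice 3 and 4, and the neutrophil sum was 390.3 and 579.9 against 2478 and 671. The part of these cells in the *Ccl2* and *Ccl7* levels was not tested. The macrophage sum, in which *Lyz2* alone had 14387 to 39810.2 per library, was below in mice 3 and 4 in FCGR4+. It was 31405 and 31544 there, against 32730.5 and 55557 in mice 1 and 2. In FCGR4- the macrophage sum overlapped between the prefixes. Over both populations it overlapped as well, at 29039 to 55557 in mice 1 and 2 and 24968 to 31544 in mice 3 and 4. Of its 14 genes, 11 overlapped, *Fcgr1* and *Aif1* were above in mice 3 and 4 (294 to 532 against 76.7 to 155, and 139 to 357 against 59.5 to 110.1), and *Mertk* was below (30.8 to 44.5 against 77.3 to 151). These 3 were named after their values had been seen.

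The difference between populations was also compared between the prefixes. By edgeR, 0 of 17095 genes had an adjusted P under 0.1 for that difference, and 2355 genes (13.8%) had an unadjusted P under 0.05. Of the 10 members, 6 had an unadjusted P under 0.05. The smallest adjusted value among them was that of *Ccl7* (edgeR adjusted P = 0.303). *Ccl8* rose more in mice 3 and 4 by 0.99 on the log2 scale (edgeR adjusted P = 0.325), which did not pass.

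Of 12 other CC chemokine ligand genes, 8 were tested, 1 was called lower in FCGR4+, and 0 were called higher. The one called was *Ccl22*, which mature dendritic cells express, with 1.18 to 6.86 normalized CPM in FCGR4+ and 6.74 to 24.6 in FCGR4- (log2 fold change -1.89 ± 0.313 SE, edgeR adjusted P = 0.0636). *Ccl22* and *Ccr7* are themselves on the list of dendritic cell markers. The other 8 genes of that list, 3 of them called lower, summed to 16.6 to 23.1 in FCGR4+ and 52.2 to 93.5 in FCGR4-, and their part in this difference was not tested. *Ccl12* had the highest level per length of this list and was higher in FCGR4+ in all 4 mice without being called (log2 fold change 0.71 ± 0.140 SE, edgeR adjusted P = 0.103). Its values were 9.88, 5.66, 347, and 674 in FCGR4+ and 6.28, 2.94, 198, and 490.7 in FCGR4-.

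The receptors for these ligands were measured in the same libraries. Of 14 CC chemokine receptor genes, 8 were tested, 2 were called lower, and 0 were called higher. *Ccr7*, the receptor that guides dendritic cells and T cells to lymph nodes, had 0.415 to 2.73 normalized CPM in FCGR4+ and 5.45 to 24.2 in FCGR4- (log2 fold change -3.54 ± 0.400 SE, edgeR adjusted P = 0.0195). The decoy receptor gene *Ackr2* was at 0 to 0.135 in FCGR4+ and 0.425 to 2.71 in FCGR4- (edgeR adjusted P = 0.0994), and no fold is given because FCGR4+ values were near the floor of 3 counts. *Ccrl2*, which had the highest level per length, had a log2 fold change of -0.35 ± 0.335 SE (edgeR adjusted P = 0.730). *Ccr2*, *Ccr1*, and *Ccr3*, receptors of ligands described above, were not called (edgeR adjusted P = 0.989, 0.9749, and 0.732). *Ccr2* lay between 176 and 288 normalized CPM in mice 1 and 2 and between 517 and 725 in mice 3 and 4, without overlap. These receptors were named for their ligands after the values had been seen. *Ccr8* did not pass the filter on low counts.

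Of 16 CXC and other chemokine ligand genes, 14 were tested, 1 was called higher, and 1 lower. *Cxcl9*, an interferon γ-induced ligand of CXCR3, had 31.6, 7.40, 11.9, and 9.65 normalized CPM in FCGR4+ and 8.51, 2.44, 4.73, and 3.53 in FCGR4-. It was higher in FCGR4+ in every mouse (log2 fold change 1.57 ± 0.184 SE, edgeR adjusted P = 0.0214), and *Cxcl9* did not follow the prefix as *Ccl8* did, with its highest value in mouse 1. *Cxcl12*, which stromal cells express, had 6.93 to 17.9 in FCGR4+ and 10.4 to 71.6 in FCGR4- (log2 fold change -1.25 ± 0.241 SE, edgeR adjusted P = 0.0967), beside the fibroblast markers given above. *Pf4*, which platelets and some macrophages express, had the highest level per length and was not called (log2 fold change 0.57 ± 0.299 SE, edgeR adjusted P = 0.569). It lay between 194 and 406 normalized CPM in mice 1 and 2 and between 519 and 1533 in mice 3 and 4.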

How the data were processed

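The authors sorted FCGR4+ and FCGR4- eWAT macrophages into Trizol, aligned the reads with STAR (mm10), and made counts of read pairs per gene with featureCounts 1.6.3 on GENCODE M18. The deposited values are unnormalized counts for 54146 genes. Per the file's own record, a pair with several alignments counted once for each of them and strand was ignored. All library columns entered the analysis, and 0 gene rows were blank. Libraries were assigned to population and mouse from the labels.

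The 17095 genes that reached 10 counts in 4 or more of the 8 libraries entered edgeR 4.0.16 (quasi-likelihood F test, TMM normalization, mouse and population as terms) in R 4.3.3. P values were adjusted over all tested genes by the Benjamini-Hochberg method, and a gene was called at an adjusted P under 0.1. The study's methods name DESeq2 with the same terms, and DESeq2 1.42.0 was run as an alternative. Normalized CPM are counts over TMM-scaled library size. SEs were taken from the fold change and its F value, and 95% intervals from the same fit. Likeness between genes used log2 CPM with a prior count of 2. Gene length in the deposited table, also the authors', served as kilobases of exon. Shared stretches were read from GENCODE M21 transcripts and promoters from RefSeq.

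The pairing comes from the mouse given in the labels, each mouse giving both populations. The deviations of same-mouse libraries from their group means correlated at 0.291 or more in all 4 mice, with a median of -0.0615 between different mice. No 2 libraries of a population agreed within sampling noise (chi-square per degree of freedom at least 86.8). The test was checked on simulated counts with 200 changed genes. In the paired comparison of FCGR4+ with FCGR4- over 17095 genes, edgeR recovered 79% of genes changed 4-fold and 47% of those changed 2-fold, and 14 of its 140 calls were unchanged genes. DESeq2 made 242 calls there, of which 90 were unchanged genes.

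The members and all gene lists were chosen with earlier results of these data known. Named beyond the members were the called genes of the other chemokine and receptor lists and the gene with the highest level per length in each, the 3 highest genes of a marker list that moved with a member, *Fcgr4*, and the 3 genes with a mean log2 CPM of at least 1 most like each called member. Alternatives were no pairing, DESeq2, edgeR's newer quasi-likelihood method, RLE factors, library size alone, other count filters, a threshold of 0.05, each mouse left out, and each prefix alone. The fits of the animal ID prefix were added after seeing the data.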

Additional observations from a re-analysis of the deposited data

Results flagged for a closer look

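Of 30 sets of 4 values examined (each member's normalized CPM in FCGR4+, in FCGR4-, and its log2 ratio per mouse), 1 held a value far from the others by Dixon's criterion, where chance gives about 1.5. It was *Ccl5* in FCGR4+, where mouse 3 (27.1 normalized CPM) stood apart from 14.5 to 15.2 in the other mice (gap over range 0.942).

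For 3 members, the FCGR4+ over FCGR4- ratio was below 1 in both mice 1 and 2 and above 1 in both mice 3 and 4. The share of all tested genes that did so was not counted. The log2 fold change of *Ccl7* was higher in mice 3 and 4 by 1.03 (edgeR adjusted P = 0.303). For *Ccl5* the difference was 0.84 (edgeR adjusted P = 0.341), and for *Ccl9* it was 0.51 (edgeR adjusted P = 0.329). None of the 3 differences passed the threshold.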

How the results depend on the processing

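With the replicate block (the pairing by mouse) left out, 48 genes were called (1 higher, 47 lower) and 0 members, 0 higher and 0 lower. DESeq2 called 1024 genes (192 higher, 832 lower) and 2 members lower, edgeR's newer method 629 (57 and 572), and no filter on low counts 1054 (159 and 895) with 2 members lower. Library size alone left 8 genes higher and moved the median of all genes to -0.09. A threshold of 0.05 left 76 genes (2 higher, 74 lower) and 0 members. Mice 1 and 2 alone gave 113 genes (7 and 106) and 0 members, and mice 3 and 4 alone 113 genes (29 and 84) and 1 member, with 0 lower. With each mouse left out in turn, 84 to 163 genes were called (2 to 9 higher, 82 to 154 lower) and 0 to 1 members (0 to 1 higher, 0 lower). The direction turned for *Ccl2* and *Ccl7* with no replicate block (0.13 and 0.24) and in mice 3 and 4 alone (0.11 and 0.22), for *Ccl5* without mouse 2 (0.16, range -0.22 to 0.16 over the mice left out) and in mice 3 and 4 alone (0.33), and for *Ccl4* (0.083) and *Ccl9* (-0.14) in mice 1 and 2 alone. *Ccl8* and *Ccl11* kept their direction in all 13 alternatives. Their edgeR or DESeq2 adjusted P lay between 2.7e-06 and 0.919 and between 2.4e-05 and 0.227. Between the prefixes, DESeq2 called 6 members among 2284 genes in FCGR4+ and 4 among 786 in FCGR4-, the newer method 4 among 63 and 2 among 26, and library size alone 0 among 0 and 2 among 34. Each library left out gave 0 to 3 members (0 to 31 genes) in FCGR4+ and 0 members (0 genes) in FCGR4-. The cause of these changes was not tested. All members were far above the floor of 3 counts in every library, and the number of mice (4) limits the precision.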
